A study of Mus musculus with 12 samples.

Results

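Hepatic expression of 9 genes of glucose production, glucose use and glycogen turnover (Pck1, Fbp1, G6pc, Ppargc1a, Slc2a2, Pfkfb1, Pklr, Gys2 and Pygl) was followed across 4 diets. The genes were chosen by name, with earlier results of these data known. All 9 were found among the 22037 gene names of the liver transcriptome. RNA was sequenced from whole livers of 12 male C57BL/6J mice aged 21 weeks, 3 in each group, and each mouse was housed singly and fasted before it was killed. The ND group received a normal diet for 16 weeks and the HFD group a high-fat diet. The CLE group received the same high-fat diet with 1.5% (w/w) of an ethanol extract of chrysanthemum leaf, and the LU group the high-fat diet with 0.003% (w/w) luteolin, a plant flavone. Every difference between CLE or LU and ND livers therefore contains the high-fat diet as well as the supplement. Values are FPKM, fragments scaled to transcript length and to the size of the library, summed over all transcripts of a gene, so levels of different genes can be set side by side per unit of length.

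During fasting the liver makes glucose from lactate, amino acids and glycerol and releases it, and after a meal it takes glucose up and stores it as glycogen. Pck1 encodes the cytosolic phosphoenolpyruvate carboxykinase, Fbp1 fructose-1,6-bisphosphatase and G6pc the catalytic subunit of glucose-6-phosphatase, enzymes that carry carbon past the irreversible steps of glycolysis. Ppargc1a encodes the coactivator PGC-1alpha, which glucagon and fasting induce and which raises transcription of these enzymes. Slc2a2 encodes the hepatocyte glucose transporter GLUT2. In glycolysis and its control, Pfkfb1 encodes the bifunctional enzyme that makes and removes fructose 2,6-bisphosphate, and Pklr the liver pyruvate kinase. In glycogen turnover, Gys2 encodes the liver glycogen synthase, which builds glycogen, and Pygl the liver glycogen phosphorylase, which breaks it down.

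The promoters of 3 members are shown because hormonal and nutrient control of these genes is known to act there. In RefSeq on GRCm38.p6, 8 of the 9 members had at least 1 promoter entry, 12 in all, each running from 250 bases before to 50 bases after the start site. Gys2 had no entry. Capitals mark the letters found by the search on both strands: TGACGT, the core of the cAMP response element, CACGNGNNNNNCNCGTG, a form of the carbohydrate response element, and TATAAA, the TATA box. No 2 of these matches overlapped.
Pck1, chr2:173152823-173153122, + strand: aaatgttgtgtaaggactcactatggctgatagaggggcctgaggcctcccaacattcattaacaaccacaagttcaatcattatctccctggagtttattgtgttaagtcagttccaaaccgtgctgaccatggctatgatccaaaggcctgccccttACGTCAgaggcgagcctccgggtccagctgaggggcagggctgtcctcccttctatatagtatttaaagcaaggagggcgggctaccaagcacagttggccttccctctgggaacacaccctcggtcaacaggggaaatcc
G6pc, chr11:101367466-101367765, + strand: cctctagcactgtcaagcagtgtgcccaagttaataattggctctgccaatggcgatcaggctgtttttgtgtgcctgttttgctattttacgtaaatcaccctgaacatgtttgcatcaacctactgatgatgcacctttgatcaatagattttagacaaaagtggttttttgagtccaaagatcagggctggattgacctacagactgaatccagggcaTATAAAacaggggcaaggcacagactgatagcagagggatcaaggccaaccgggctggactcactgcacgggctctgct
Pklr, chr3:89136373-89136672, + strand: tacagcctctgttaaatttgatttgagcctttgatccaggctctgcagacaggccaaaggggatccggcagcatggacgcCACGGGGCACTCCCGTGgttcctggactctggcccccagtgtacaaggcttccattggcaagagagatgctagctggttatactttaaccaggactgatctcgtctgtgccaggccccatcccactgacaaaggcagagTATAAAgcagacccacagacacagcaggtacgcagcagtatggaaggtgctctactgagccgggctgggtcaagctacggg

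The Pck1 promoter held the cAMP response element core on the strand opposite to the gene, with its first base at -91 from the start site, and the Ppargc1a promoter held it at -50, on the strand opposite to the gene too. Of all 32851 promoters in the table, 7.51% held these letters. The most abundant Ppargc1a transcript, with 64.3% of the gene's sum, starts outside the window of the Ppargc1a promoter. The Pklr promoter shown is the second of the gene's entries. It held the carbohydrate response element, which reads the same on both strands in this form, at -170 and a TATA box at -31. That element was found in 0.0457% of all promoters, and among the members in the Pklr promoter alone. The TATA box, held by 13.6% of all promoters, lay at -29 in G6pc and at -193 in an entry of Pfkfb1. These matches describe letters in a window, and neither binding nor promoter use was measured here. The Pklr transcripts of the table start either before this window or in or after it: pooled over the 12 livers, 46.9% of the Pklr sum was assigned to the first and 53.1% to the second, with the shares of single livers given below.

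The livers held hepatocyte RNA throughout. The summed level of 5 hepatocyte markers (Ttr, Apoa1, Apob, Serpinc1 and Tf) ranged from 15653 to 16837 FPKM in ND, from 15696 to 18084 FPKM in HFD, from 16058 to 20666 FPKM in CLE and from 16228 to 18126 FPKM in LU livers, whereas albumin was listed at 0 in 11 of the 12 livers, so a 0 in these files can be a failed estimate. None of the 9 members was listed at 0 in any liver. The kidney markers Slc34a1, Lrp2 and Umod, of another organ that makes glucose, summed to at most 0.241 FPKM in any liver. Markers of other cells and zones moved with the diet. For HFD against ND, the 4 stellate cell markers passed the test in 4 of 4 cases as higher in HFD than in ND livers (summed range 113 to 141 against 62.7 to 88.9 FPKM), the macrophage markers in 2 of 4 (120 to 182 against 82.0 to 85.3 FPKM) and the pericentral hepatocyte markers in 3 of 5 (8805 to 10537 against 6544 to 7369 FPKM). No periportal marker of 4 passed (1092 to 1244 against 887 to 1270 FPKM). Of 3 endothelial markers, Stab2 passed as higher in HFD livers, and of 4 adipocyte markers only Cfd reached the minimum to be tested, and it rose from 1.36 ± 0.409 FPKM in ND to 81.9 ± 22.4 FPKM in HFD livers. Cfd also passed for CLE and LU against ND. The other 3 adipocyte markers were below that minimum but highest in the LU livers: Adipoq reached up to 0.759 FPKM there, with every LU liver above the others, and at most 0.145 FPKM elsewhere, Plin1 0.140 to 0.338 against at most 0.0274 FPKM, and Lep, listed at 0 in all other livers, 0.139 to 0.187 FPKM. Of 10 clock genes, 1 passed for HFD against ND (Ciart, higher), none for CLE or LU against HFD, 8 for CLE against ND (6 higher and 2 lower) and 7 for LU against ND (5 higher and 2 lower), and their summed range was 83.4 to 141 FPKM in ND, 102 to 161 in HFD, 167 to 269 in CLE and 160 to 216 in LU livers. Against ND, higher markers were also found in CLE and in LU livers for stellate cells (3 and 3 of 4), macrophages (3 and 1 of 4), endothelium (1 and 1 of 3) and pericentral hepatocytes (3 and 4 of 5). For CLE against HFD, the pericentral marker Lect2 was lower (123 ± 24.3 against 191 ± 25.5 FPKM, adjusted p = 0.0356) and the hepatocyte marker Apoa1 higher (6775 ± 1859 against 3708 ± 480 FPKM, adjusted p = 0.0379), and no marker passed for LU against HFD. The part of cell make-up, zonation or hour of the day in the results that follow was not tested, and in whole liver fewer cells of a type and less RNA per cell cannot be told apart.

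Groups were compared with limma's moderated test on log2(FPKM + 1) in one fit over the 12 livers, over the 11510 genes whose mean reached 0.5 FPKM, and a gene passed at a Benjamini-Hochberg adjusted p below 0.05. All 9 members cleared that minimum, each by its mean over all livers. Log2 fold changes below are on the log2(FPKM + 1) scale with the standard error of the fit, and group levels are means ± SD (n = 3 livers). Among all tested genes, the median log2 fold change as deposited was 0.11 for HFD against ND, 0.16 for CLE against ND and 0.12 for LU against ND, and -0.01, 0.02 and 0.02 after median-of-ratios scaling. The share of passing genes that were higher fell with that scaling from 82.5% to 55.1%, from 77.4% to 42.9% and from 74.7% to 40.9% in these 3 comparisons. For CLE against HFD it was 45.7% as deposited and 32.4% after a correction for GC content. Libraries of the ND and HFD mice had lower values in GC-rich genes and those of the CLE and LU mice higher ones (Spearman's rho over 7211 genes from -0.41 to -0.13 and from 0.19 to 0.51), so this property of the libraries and the supplements cannot be told apart. The members' own GC content lay between 41.7% and 54.3%.

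Among all 4 groups, 5 of the 9 members differed by the moderated F test: Gys2 (adjusted p = 0.0041), Pygl (0.0251), Fbp1 (0.027), G6pc (0.0282) and Pck1 (0.0291). Of all tested genes, 24.5% passed this test. Pfkfb1 (0.0792), Pklr (0.106), Slc2a2 (0.137) and Ppargc1a (0.139) did not pass.

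**Figure D1:**
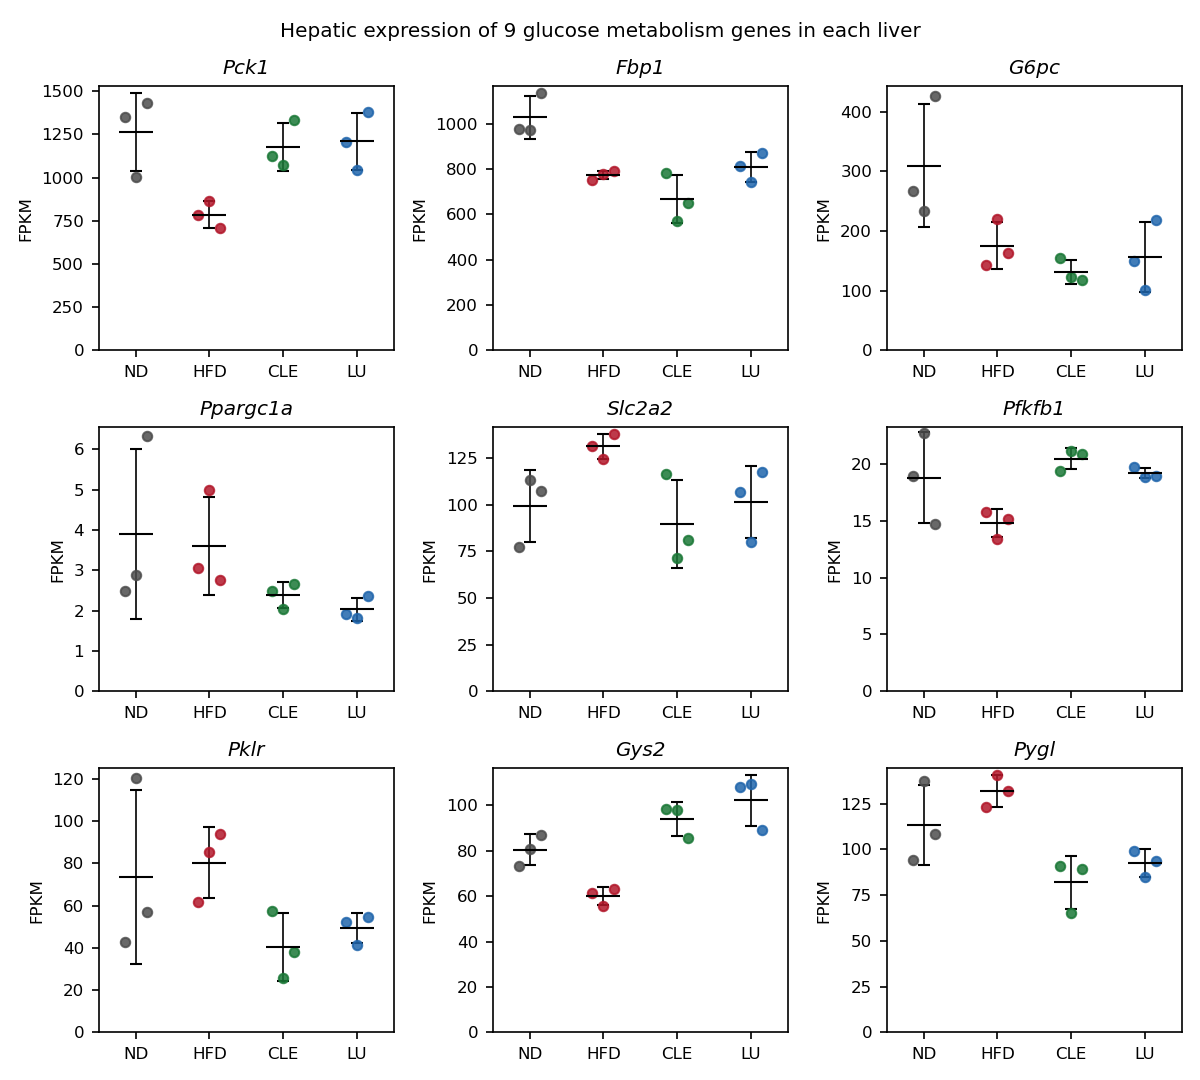
FPKM of each member (y axis, linear from 0) in each liver (points) by diet group (x axis), with the group mean (horizontal bar) and SD (whiskers, n = 3). The HFD livers lie below all others in Pck1 and Gys2, and the ND livers lie above all others in Fbp1 and G6pc.

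Of the enzymes of glucose production, Pck1 was lower in HFD livers than in every other group, and Fbp1 and G6pc were higher in ND livers than in every other group. Pck1, which makes phosphoenolpyruvate from oxaloacetate, stood at 1351, 1005 and 1434 FPKM in the ND livers, at 784, 867 and 708 FPKM in the HFD livers, at 1124, 1075 and 1333 FPKM in the CLE livers and at 1207, 1042 and 1377 FPKM in the LU livers. The highest HFD liver was below the lowest liver of each other group, and the ND, CLE and LU livers overlapped. Pck1 fell from 1263 ± 227 FPKM in ND to 786 ± 79.5 FPKM in HFD livers, a log2 fold change of -0.67 ± 0.17 (adjusted p = 0.0195), or 0.628 times the ND level. The call was lost without ND mouse 2, ND mouse 4, HFD mouse 12 or HFD mouse 18, with limma adjusted p of 0.0841, 0.0813, 0.058 and 0.0822. Against HFD, the log2 fold change was 0.58 ± 0.17 in CLE livers (mean 1177 ± 137 FPKM, adjusted p = 0.0537) and 0.62 ± 0.17 in LU livers (mean 1209 ± 167 FPKM, adjusted p = 0.0858), and neither passed. The 95% confidence interval of the difference from ND ran from -0.45 to 0.27 for CLE and from -0.41 to 0.30 for LU.

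Fbp1, which removes a phosphate from fructose 1,6-bisphosphate, had 978, 970 and 1137 FPKM in the ND livers, 752, 778 and 789 FPKM in the HFD livers, 782, 570 and 651 FPKM in the CLE livers and 813, 742 and 872 FPKM in the LU livers. Every ND liver was above every liver of the other groups, while the HFD livers overlapped with both supplemented groups. From ND (1029 ± 94.3 FPKM) to CLE livers (667 ± 107 FPKM) Fbp1 fell by 0.63 ± 0.14 log2 units (adjusted p = 0.00795), a call that held whichever mouse was left out. It was lost with the mouse number as a block (-0.66, limma adjusted p = 0.237). HFD livers (773 ± 19.2 FPKM) differed from ND by -0.41 ± 0.14 (adjusted p = 0.0687) and LU livers (809 ± 64.9 FPKM) by -0.35 ± 0.14 (adjusted p = 0.0941) on the log2 scale. Both passed after median-of-ratios scaling, with adjusted p of 0.026 and 0.0419 (0.026 to 0.286 and 0.038 to 0.22 over all alternatives) and log2 fold changes of -0.57 and -0.47. A single assembled transcript variant carried 94.5% of the Fbp1 sum, and annotated Fbp1 transcripts carried 5.35%.

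G6pc, whose product releases free glucose from glucose 6-phosphate, had 268, 234 and 427 FPKM in the ND livers, 143, 220 and 163 FPKM in the HFD livers, 155, 123 and 117 FPKM in the CLE livers and 150, 101 and 218 FPKM in the LU livers. The ND livers were again above all others, and the other 3 groups overlapped. G6pc fell from 310 ± 103 FPKM in ND to 132 ± 20.0 FPKM in CLE livers (log2 fold change -1.19 ± 0.27, adjusted p = 0.0103) and to 156 ± 58.9 FPKM in LU livers (-1.001 ± 0.27, adjusted p = 0.0302). For HFD (176 ± 39.9 FPKM) the log2 fold change against ND was -0.79 ± 0.27 (adjusted p = 0.0807). The CLE call was kept with each mouse left out, and the LU call was lost without ND mouse 2, ND mouse 4, LU mouse 2 or LU mouse 3, with limma adjusted p of 0.0602, 0.116, 0.0681 and 0.106. A transcript assembled on the opposite strand made up 4.16% to 15% of the G6pc sum, and without it the log2 fold change was -1.16 for CLE and -0.91 for LU against ND, and both still passed. With complete reference matches only, the LU value was also -0.91 but did not pass (limma adjusted p = 0.0591). The LU call was lost with the most abundant transcript alone too (limma adjusted p = 0.0646). Over all alternatives that keep every mouse, its adjusted p lay between 0.0197 and 0.0649.

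Pck1 and G6pc thus stood in different proportions in the supplemented livers. The ratio of Pck1 to G6pc within a liver was 4.23 ± 0.844 in ND, 4.58 ± 0.793 in HFD, 9.11 ± 2.07 in CLE and 8.22 ± 2.01 in LU livers (mean ± SD, n = 3). The lowest CLE liver (7.27) and the lowest LU liver (6.31) were above the highest ND (5.04) and HFD (5.46) livers. The ratio was formed after the values were seen and is given without a test.

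Ppargc1a was expressed at a low level, with 2.50, 2.89 and 6.32 FPKM in the ND livers, 3.07, 5.00 and 2.76 FPKM in the HFD livers, 2.49, 2.04 and 2.65 FPKM in the CLE livers and 1.93, 1.82 and 2.36 FPKM in the LU livers. ND mouse 4 and HFD mouse 15 were above the others of their groups, and the LU livers were below all ND and HFD livers. No comparison of Ppargc1a passed. The largest difference was that of LU against ND, with a log2 fold change of -0.61 ± 0.24 (adjusted p = 0.0989). Between HFD and ND it was -0.04 with a 95% confidence interval from -0.57 to 0.49.

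Of the genes of glucose transport and glycolysis, no comparison of Slc2a2, Pfkfb1 or Pklr passed. The HFD livers did not overlap with either supplemented group in each. The share of all genes with such a separation was not computed, so the separation does not set these genes apart. Of all tested genes, 29.6% had an unadjusted limma p below 0.05 for CLE against HFD and 20.3% for LU against HFD. Slc2a2, the glucose transporter, had 77.1, 113 and 107 FPKM in the ND livers, 131, 124 and 138 FPKM in the HFD livers, 117, 71.7 and 80.9 FPKM in the CLE livers and 106, 79.8 and 118 FPKM in the LU livers. All HFD livers were above all livers of the other groups, which overlapped. In log2 units, HFD livers differed from ND by 0.42 ± 0.20 (adjusted p = 0.188), and the fold change was -0.57 ± 0.20 for CLE against HFD (adjusted p = 0.0822) and -0.39 ± 0.20 for LU against HFD (adjusted p = 0.277). Without CLE mouse 2, the highest of its group, the CLE difference was -0.78 and passed (limma adjusted p = 0.0176, and 0.0176 to 0.307 with each mouse left out). It passed in 0 of the 11 alternatives that keep every mouse, with values from -0.78 to -0.41 (limma adjusted p from 0.0696 to 0.168).

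Pfkfb1, which sets the level of the phosphofructokinase activator fructose 2,6-bisphosphate, had 19.0, 22.7 and 14.7 FPKM in the ND livers, 15.7, 13.4 and 15.2 FPKM in the HFD livers, 19.4, 21.1 and 20.8 FPKM in the CLE livers and 19.7, 18.9 and 19.0 FPKM in the LU livers. The CLE and LU livers were tightly grouped, with coefficients of variation of 4.54% and 2.48%, and were above all HFD livers, while ND mouse 4 lay within the HFD range. This holds for the sum over transcripts. In the most abundant Pfkfb1 transcript, with 46.3% of the sum, CLE mouse 4 (7.19 FPKM) lay below HFD mouse 15 (7.43 FPKM). Against HFD the log2 fold change was 0.45 ± 0.13 in CLE (adjusted p = 0.0585) and 0.36 ± 0.13 in LU livers (adjusted p = 0.167). For HFD against ND it was -0.31 ± 0.13 (adjusted p = 0.152) as deposited, and -0.46 (adjusted p = 0.0446, and 0.0446 to 0.324 over all alternatives) after median-of-ratios scaling. Over the 11 alternatives that keep every mouse, the value for CLE against HFD ran from 0.25 to 0.50 (limma adjusted p from 0.043 to 0.263).

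Pklr, which makes pyruvate from phosphoenolpyruvate, had 42.8, 120 and 57.1 FPKM in the ND livers, 61.6, 85.4 and 93.8 FPKM in the HFD livers, 57.5, 25.7 and 38.1 FPKM in the CLE livers and 52.0, 41.5 and 54.6 FPKM in the LU livers. ND mouse 3 was the highest liver of all, and all CLE and LU livers were below all HFD livers. The spread within ND was wide, with a coefficient of variation of 56.1%. The CLE level was 0.492 times the HFD level, a log2 fold change of -1.02 ± 0.34 (95% confidence interval -1.75 to -0.29, adjusted p = 0.0752), and for LU against HFD the log2 fold change was -0.68 ± 0.34 (adjusted p = 0.271). The CLE difference passed without CLE mouse 2 (-1.31, limma adjusted p = 0.0257) and without ND mouse 3 (-1.02, limma adjusted p = 0.0469), and its adjusted p with each mouse left out lay between 0.0257 and 0.301. The most abundant Pklr transcript starts before the promoter window shown above. With it alone, the log2 fold change against HFD was -0.28 for CLE (limma adjusted p = 0.701) and -0.07 for LU. Over the 11 alternatives that keep every mouse the CLE value ran from -1.14 to -0.28 (adjusted p from 0.0642 to 0.701). The most abundant transcript that starts in that window was not tested alone. It had 11.2, 32.1 and 21.1 FPKM in ND and 23.4, 32.5 and 35.9 FPKM in HFD livers. In CLE livers it had 16.5, 1.13 and 9.19 FPKM, and in LU livers 7.12, 7.71 and 16.4 FPKM. Of the Pklr sum, the transcripts that start in or after the promoter window shown above took 51.4% to 74.4% in ND, 53.1% to 69.7% in HFD, 25.6% to 45.5% in CLE and 36.7% to 51.8% in LU livers, as Cufflinks shared out the reads.

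Gys2 and Pygl, the enzymes that build and break down glycogen, moved in opposite directions between HFD and CLE livers. Gys2, glycogen synthase, had 73.4, 81.0 and 86.9 FPKM in the ND livers, 61.3, 55.8 and 63.0 FPKM in the HFD livers, 98.5, 98.1 and 85.5 FPKM in the CLE livers and 108, 110 and 89.3 FPKM in the LU livers. All HFD livers were below all others, all LU livers were above all ND livers, and CLE and LU livers overlapped. The separation of LU from ND holds for the sum over transcripts. In the most abundant Gys2 transcript, with 78.6% of the sum, LU mouse 8 (69.8 FPKM) lay below ND mouse 4 (73.7 FPKM). Gys2 fell from 80.4 ± 6.80 FPKM in ND to 60.1 ± 3.78 FPKM in HFD livers, a log2 fold change of -0.41 ± 0.11 (adjusted p = 0.0319). It was higher than in HFD by 0.64 ± 0.11 log2 units in CLE livers (94.0 ± 7.41 FPKM, 1.56-fold, adjusted p = 0.0171) and by 0.75 ± 0.11 in LU livers (102 ± 11.3 FPKM, 1.69-fold, adjusted p = 0.00932). Against ND, the log2 fold change was 0.22 for CLE (95% confidence interval -0.02 to 0.47) and 0.34 for LU (0.09 to 0.59, adjusted p = 0.0601). After median-of-ratios scaling these were 0.05 and 0.21, and with the most abundant transcript alone 0.01 and 0.17.

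Each of the 3 Gys2 differences that passed kept its direction in every fit, but the calls were near the threshold. The HFD call was lost without ND mouse 3 or 4 or HFD mouse 12, 15 or 18 (limma adjusted p from 0.0634 to 0.119). The CLE call was lost without HFD mouse 12, HFD mouse 15 or CLE mouse 4 (from 0.0519 to 0.0951), and the LU call without HFD mouse 15, LU mouse 2 or LU mouse 3 (from 0.0503 to 0.0599). A short annotated Gys2 transcript at the end of the gene was listed at no more than 1.47e-19 FPKM in the ND and HFD livers and in CLE mouse 2, and at 3.04 to 7.80 FPKM in the other CLE and LU livers. With the most abundant Gys2 transcript alone the CLE difference was 0.43 (limma adjusted p = 0.0604), and over all alternatives its adjusted p lay between 0.0168 and 0.0604.

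Pygl, glycogen phosphorylase, had 94.2, 137 and 108 FPKM in the ND livers, 123, 141 and 132 FPKM in the HFD livers, 91.2, 65.2 and 89.4 FPKM in the CLE livers and 99.3, 84.7 and 93.7 FPKM in the LU livers. The CLE and LU livers were below all HFD livers, and the CLE livers were below all ND livers too. Pygl was lower in CLE (81.9 ± 14.5 FPKM) than in HFD livers (132 ± 8.66 FPKM) by a log2 fold change of -0.69 ± 0.15 (adjusted p = 0.0328), and lower than in ND livers (113 ± 22.0 FPKM) by -0.46 ± 0.15 (adjusted p = 0.0422). For LU (92.6 ± 7.39 FPKM) against HFD the log2 fold change was -0.51 ± 0.15 (adjusted p = 0.118), and for HFD against ND 0.23 ± 0.15 (adjusted p = 0.364). The CLE call against HFD was lost without HFD mouse 12, 15 or 18 or CLE mouse 4, with limma adjusted p from 0.0645 to 0.14. The call against ND was lost without any of 8 mice, with limma adjusted p between 0.0511 and 0.156, ND mouse 3 and CLE mouse 4 giving the smallest differences (-0.32 and -0.31).

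The ratio of Gys2 to Pygl within a liver put both differences on 1 scale. It was 0.779, 0.589 and 0.801 in the ND livers, 0.497, 0.397 and 0.479 in the HFD livers, 1.08, 1.51 and 0.956 in the CLE livers and 1.09, 1.29 and 0.952 in the LU livers. The HFD livers were below and the CLE and LU livers above all ND livers. The group means were 0.723 ± 0.117 (ND), 0.457 ± 0.0534 (HFD), 1.18 ± 0.288 (CLE) and 1.11 ± 0.172 (LU). Like the ratio of Pck1 to G6pc, it was formed after the values were seen and carries no test.

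**Figure D2:**
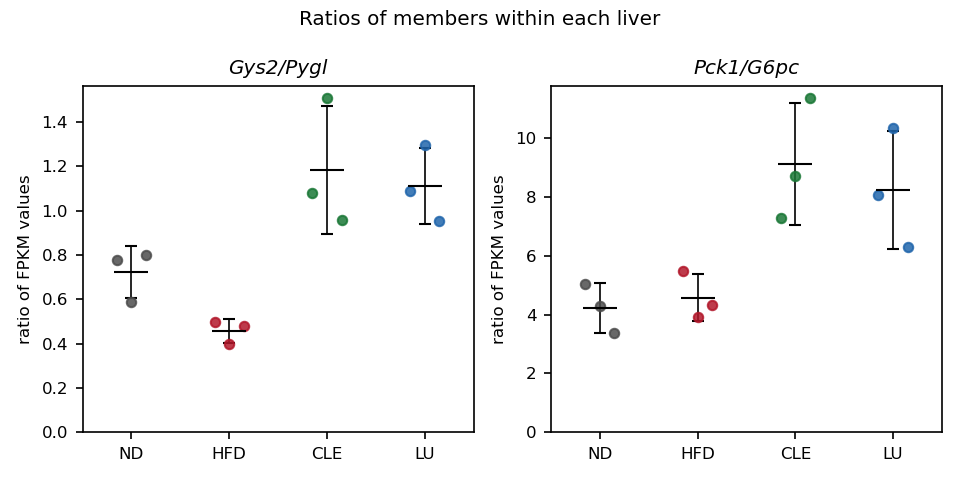
Ratio of the FPKM values of Gys2 to Pygl (left) and of Pck1 to G6pc (right) in each liver (points), with the mean (horizontal bar) and SD (whiskers, n = 3) of each diet group. Gys2/Pygl was lowest in HFD livers (0.397 to 0.497), and both ratios were higher in CLE and LU livers than in ND livers.

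Counted by comparison, 2 of the 9 members passed for HFD against ND, both lower in HFD (Pck1 and Gys2), beside 12.2% of all genes tested. For CLE against HFD 2 passed, Gys2 higher and Pygl lower, beside 6.16% of all genes, and for LU against HFD 1 passed, Gys2, beside 1.04%. For CLE against ND 3 passed as lower (G6pc, Fbp1 and Pygl) beside 26.9% of all genes, and for LU against ND 1, G6pc, beside 15%. As shares of the 9 members these counts are 22.2%, 22.2%, 11.1%, 33.3% and 11.1%, with each count resting on 3 genes at most. The members were chosen with earlier results of these data known, and the counts moved with the fit, as given below. Whether the shares differ from those of all genes was not tested. The median log2 fold change of the 9 members was -0.31 for HFD against ND, -0.40 for CLE against HFD and -0.21 for LU against HFD, and over all tested genes it was 0.11, 0.02 and -0.02. These comparisons share the HFD or the ND livers.

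**Figure D3:**
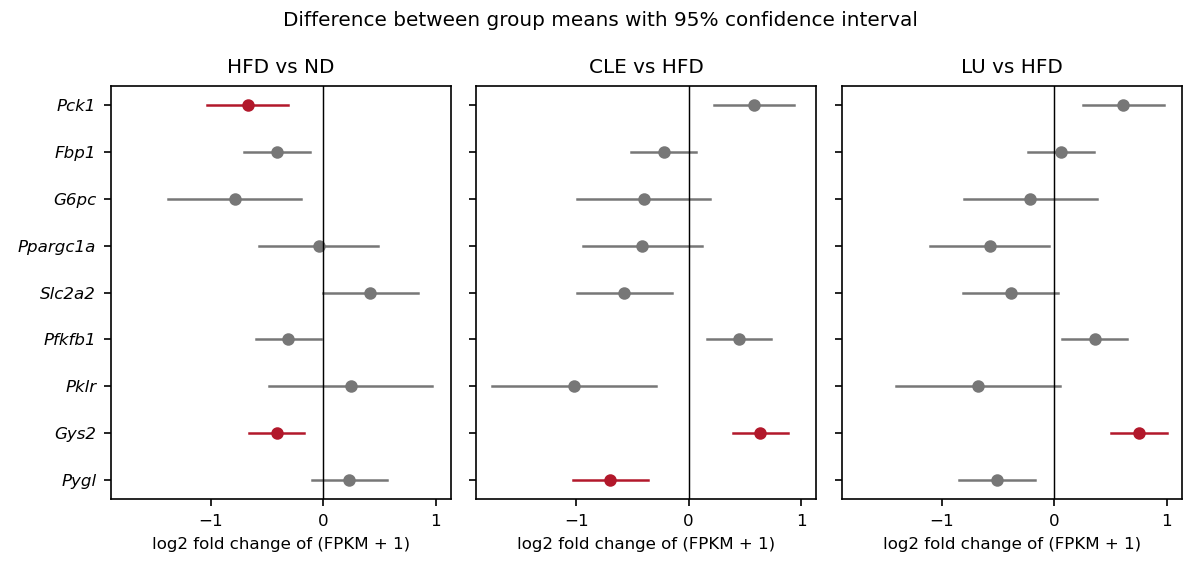
Log2 fold change of FPKM + 1 (points, x axis) with its 95% confidence interval (lines) for each member in 3 comparisons, with members that passed at an adjusted p of 0.05 in red and the others in grey. Gys2 lies below 0 for HFD against ND (-0.41) and above 0 for CLE and LU against HFD (0.64 and 0.75), and Pygl lies on the other side of 0 in each panel.

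Between CLE and LU livers no member passed by limma's test, beside 0.00869% of all genes (1 gene). None had an unadjusted p below 0.05 either, beside 4.36% of all genes, so neither count sets the members apart. The groups overlapped in each of the 9 members, and the share of all genes with overlapping groups was not computed. The difference nearest to passing was that of Fbp1, -0.29 on the log2 scale with a 95% confidence interval from -0.58 to 0.01. The interval was from -0.36 to 0.13 for Gys2, from -0.52 to 0.15 for Pygl, from -0.39 to 0.32 for Pck1 and from -1.07 to 0.38 for Pklr. Differences within these bounds are not excluded with 3 livers a group. The extract and luteolin were fed at different doses.

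The other genes of these pathways, 87 by list, gave 80 that were tested. From ND to HFD, 8 of them rose and 5 fell (16.2% of them, beside 12.2% of all genes tested). In CLE against HFD livers 3 were higher and 5 lower (10.0% beside 6.16%), and in LU against HFD livers 1 was lower (1.25% beside 1.04%). Against ND, 25 differed in CLE (31.2% beside 26.9%) and 12 in LU livers (15% beside 15%).

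Of the 13 listed genes of glycolysis and glucose phosphorylation, 4 rose and 1 fell from ND to HFD. Among the rises were those of Gckr, a regulatory protein of hepatic glucose phosphorylation (83.1 ± 17.8 to 128 ± 5.42 FPKM, adjusted p = 0.00775), Pkm, the pyruvate kinase of other tissues (5.97 ± 0.712 to 11.3 ± 0.404 FPKM, adjusted p = 0.00534), and Pfkp, the platelet-type phosphofructokinase (1.37 ± 0.282 to 2.39 ± 0.360 FPKM, adjusted p = 0.0309). Aldoc, an aldolase isoform, fell from 3.66 ± 0.636 to 0.830 ± 0.0564 FPKM (adjusted p = 0.000187). Aldoa, chosen after its values were seen, was higher in CLE than in HFD livers (85.4 ± 18.5 against 54.2 ± 0.830 FPKM, adjusted p = 0.0328). The list's median log2 fold change for HFD against ND was 0.35.

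Of 21 tested genes of the other steps of glucose production and of substrate entry, 3 fell from ND to HFD and none rose. Got1, the cytosolic aspartate aminotransferase, had 298, 247 and 348 FPKM in the ND and 135, 112 and 118 FPKM in the HFD livers, without overlap, a log2 fold change of -1.27 ± 0.21 (adjusted p = 0.00217). Ldha, the lactate dehydrogenase subunit that can feed lactate carbon in, fell by 0.64 ± 0.16 log2 units (adjusted p = 0.0226) and Gyk, glycerol kinase, by 0.59 ± 0.16 (adjusted p = 0.0299). Ldha stood at 1189 ± 141 FPKM in CLE and 1239 ± 235 FPKM in LU livers against 884 ± 25.3 FPKM in HFD livers, without passing (adjusted p = 0.112 and 0.15). Got1 and Gyk stayed below ND in both supplemented groups. For Got1 the log2 fold change against ND was -1.23 in CLE (adjusted p = 0.00294) and -0.84 in LU livers (adjusted p = 0.0218). For Gyk it was -0.56 in CLE (adjusted p = 0.0224) and -0.78 in LU livers (adjusted p = 0.0107). Neither Got1 nor Gyk passed for CLE or LU against HFD. Mdh2, the mitochondrial malate dehydrogenase, was higher in CLE than in HFD livers by 0.45 ± 0.11 (adjusted p = 0.0402). The list's median log2 fold change for HFD against ND was 0.03.

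Among the 16 other glycogen genes, 2 rose and 1 fell from ND to HFD, and 1 was higher and 3 were lower in CLE than in HFD livers. Gbe1, the glycogen branching enzyme, rose from 29.8 ± 6.18 FPKM in ND to 48.4 ± 6.73 FPKM in HFD livers (adjusted p = 0.0236) and was lower in CLE livers (26.8 ± 6.51 FPKM, adjusted p = 0.0285). Ugp2, which makes the UDP-glucose that glycogen synthase uses, was lower in CLE than in HFD livers by -1.02 ± 0.24 (adjusted p = 0.0351). All HFD livers were above all CLE livers and all LU livers in both of these genes. Gyg, glycogenin, rose from ND to HFD (adjusted p = 0.0319), Ppp1r3g, a glycogen-targeting subunit of protein phosphatase 1 and chosen after its values were seen, fell (adjusted p = 0.0444), and Gaa, the lysosomal alpha-glucosidase, was higher in CLE than in HFD livers (adjusted p = 0.0402). Over these 16 genes the median difference in log2 units was 0.31 between HFD and ND and -0.08 between CLE and HFD livers.

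**Figure D4:**
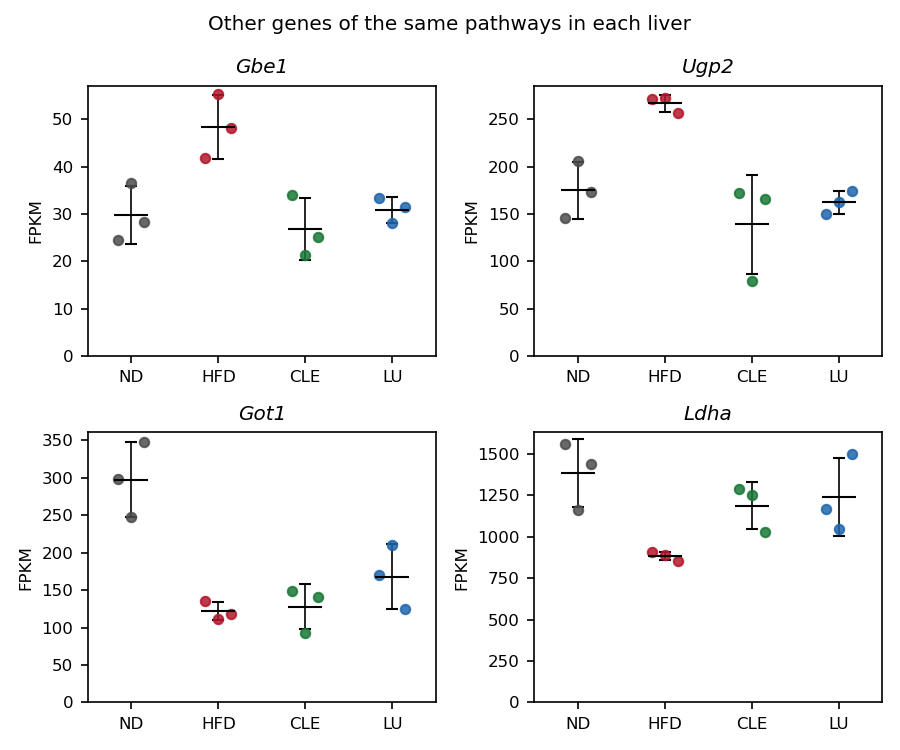
FPKM of 4 other genes of the same pathways (y axis, linear from 0) in each liver (points) by diet group, with the group mean (horizontal bar) and SD (whiskers, n = 3). Gbe1 and Ugp2 were highest in HFD livers, Got1 was highest in ND livers, and Ldha was lowest in HFD livers.

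Of the other pathway genes, Mpc1, a subunit of the mitochondrial pyruvate carrier, rose from 222 ± 18.1 FPKM in ND to 323 ± 29.2 FPKM in HFD livers (adjusted p = 0.0136) as the only one of 9 tested genes of pyruvate handling. Slc2a1, the glucose transporter of most other tissues, rose from 4.20 ± 1.40 to 6.69 ± 0.636 FPKM (adjusted p = 0.0416). None of the 3 other bifunctional 6-phosphofructo-2-kinases passed in a comparison of HFD with ND or of a supplement with HFD. Of 15 regulators of these genes, none passed for HFD against ND, and Creb1, the factor that binds the cAMP response element, was lower in CLE than in HFD livers (3.34 ± 0.201 against 4.94 ± 0.785 FPKM, log2 fold change -0.45 ± 0.12, adjusted p = 0.0492).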

How the data were processed

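Liver RNA of 12 mice was sequenced from TruSeq mRNA libraries. The authors deposited 1 table of FPKM values per transcript for the 12 livers. The submitters' processing notes name CASAVA 1.8.2, Bowtie2 2.2.3, TopHat2 2.0.12 and Cufflinks 2.2.1. Columns were matched to mice by the sample titles, and the table writes the CLE group with another abbreviation. The genome build is not given in the sources used here. Of 77000 reference transcripts that GENCODE M21 (GRCm38) also holds, 87.6% have the same start and end there. Whether the FPKM values include the normalization factors named in the study's methods is not given either. The table holds no counts, so depth and counting error are unknown, and the study's count-based test was not run.

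Of 152210 transcript rows, 8310 with no gene name or no reference transcript were left out, and 143900 were summed by gene name. The 60 rows of the 9 members were all kept, and each had a reference transcript of that gene. Levels over all genes kept summed to between 538169 and 645810 FPKM per liver, and any 2 livers correlated with Pearson's r from 0.980 to 0.997 across genes. The rows left out held more than that in every liver, from 1483758 FPKM in ND mouse 4 to 6084612 FPKM in CLE mouse 4. Any effect of this uneven share on the members' FPKM values was not tested.

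Tests used R 4.3.3 and limma 3.58.1 with the variance trend on log2(FPKM + 1), two-sided, 1 coefficient per group, with Benjamini-Hochberg adjustment over 11510 genes at 0.05. The fit was tested on simulated data. The mice were housed singly and count as replicates. For a single gene, an exact permutation test of 3 against 3 livers cannot go below p = 0.1, and none was used. Alternatives were a pseudocount of 0.1, no filter, a minimum mean of 5 FPKM, scaling by median of ratios, by quantiles and by GC content, no variance trend, the 2 groups alone, the most abundant row, complete reference matches, each mouse left out, and the mouse number as a block; leaving out antisense and intronic rows was added after the data were seen. The members, gene lists and markers were chosen with earlier results of these data known. Every member was named, and of the other lists each gene that passed for HFD against ND or for CLE or LU against HFD, up to 5 a list. A few genes that the counts include are not reported here by name. Gpt and Slc2a5 had no row under that name, and Gk and Adgre1 were read as Gyk and Emr1. In the promoter table, RefSeq GRCm38.p6 sequences were matched by symbol.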

Additional observations from a re-analysis of the deposited data

How the results depend on the processing

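No member difference that passed in any fit changed direction. Over all members, comparisons and alternatives, 1170 results stayed on their side of the threshold, 48 no longer passed and 36 came to pass. For HFD against ND, 2 members passed as deposited, 5 with median-of-ratios scaling, 4 with the GC correction, 4 in a fit of the 2 groups alone and 0 with the most abundant row in place of the sum, and between 0 and 3 with 1 mouse left out. For CLE against HFD, 2 passed in the reported fit, 1 with no filter, 4 with a mean of at least 5 FPKM, 4 with quantile normalization, 0 with the most abundant row, 0 in the 2 groups alone, and between 0 and 6 with 1 mouse left out, the 6 without CLE mouse 2. For LU against HFD, 1 passed, 2 in the 2 groups alone and between 0 and 2 with 1 mouse left out. For CLE against LU, 0 passed in every alternative run. For CLE against ND, 3 passed, 4 with median-of-ratios scaling (Pklr added), and 2 with no filter, the most abundant row, complete reference matches or the 2 groups alone (Pygl lost in each), and between 2 and 4 with 1 mouse left out. For LU against ND, 1 passed, 0 with no filter, 0 with the most abundant row, 0 in the 2 groups alone, 2 with median-of-ratios scaling, 2 with the GC correction, and between 0 and 2 with 1 mouse left out. The cause of these shifts was not tested. After the GC correction Gys2 and Pygl still passed for CLE against HFD (log2 fold changes 0.70 and -0.69), and Gys2 for LU against HFD (0.83).

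CLE and ND mice, and LU and ND mice, share 2 mouse numbers each, which the labels do not tie to a litter or batch. Same-numbered mice deviated with correlations of -0.26 and -0.10 (CLE and ND) and 0.09 and 0.18 (LU and ND). With the number as a replicate block, 1 member passed for CLE against ND (3 without, Fbp1 and Pygl lost) and 1 for LU against ND, and the genes passing fell from 3099 to 1046 and from 1724 to 997. HFD mice share no number with another group. FPKM values carry no depth, which limits what can be said of low genes such as Ppargc1a.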
